A study of Homo sapiens with 8 samples.

Results

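The genes described here were the ADAM and ADAMTS metalloproteases, taken as every row of the deposited expression table whose annotated gene symbol is ADAM or ADAMTS followed by digits only. The rule found 37 genes of 17687 in rows with 1 gene symbol, 19 ADAM and 18 ADAMTS genes. Each was read by 1 transcript cluster (a group of probes that reports 1 gene). ADAM7 and ADAMTS7, also of the family, were not found among these rows. Total RNA of 8 xenografts was measured on Affymetrix arrays. The tumours arose from SK-OV-3, an established human ovarian cancer line, after implantation into nude mice, which lack T cells and keep other stromal and immune cells. The implanted cells carried either pIND_BORA (4 tumours), a vector that overexpresses BORA, which helps Aurora A switch on the mitotic kinase PLK1, or pIND_EV (4 tumours), the empty vector. Nothing in the labels gives the animal behind a tumour, its age, or the transfected clone or pool, so p-values reflect the spread among these 8 samples alone, and that spread may be technical.

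ADAM proteins are mostly membrane-anchored enzymes that cut the outer part off other membrane proteins, a process called shedding, which frees growth factors and cytokines and switches on receptors such as Notch. Some ADAMs lack the zinc-binding active site and act in adhesion, and several of these are made mainly in testis. ADAMTS proteins are secreted relatives with thrombospondin repeats that work in the extracellular matrix, where they cleave proteoglycans, trim procollagens or process single targets such as von Willebrand factor. In carcinomas the family is studied for the release of EGF receptor ligands and for the remodelling of the matrix around tumour cells.

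The BORA transcript was at 12.55 to 13.00 in BORA tumours and at 6.15 to 7.32 in EV tumours on the log2 scale, as their labels say. PAX8, EPCAM, KRT8 and KRT18 exceeded the negative controls in every array, while MUC16 and WT1, the other ovarian carcinoma markers looked at, did so in none. The array of EV replicate 1 stood apart: it correlated with the others at 0.943 to 0.954 over all clusters, against 0.981 to 0.992 among the other 7. The mean of 7 squamous epithelial markers was 14.35 there and 6.01 to 6.91 elsewhere. Of these markers, KRT5 was at 12.78 to 15.00 in BORA tumours and 13.06 to 13.99 in EV replicates 2 to 4. KRT14 exceeded the controls in every BORA tumour and in EV replicates 1 and 4. The others did so in no tumour outside EV replicate 1. Because EV replicate 1 stood apart, comparisons of members and other named genes are given over 8 arrays and over the 7 without it. Fewer cells of a type and less RNA per cell cannot be told apart in such bulk samples.

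Of the 37 genes, 5 were measured above the negative controls in all 8 tumours: ADAM9, ADAM10, ADAM12, ADAM17 and ADAMTS1. The limit was the 95th percentile of 612 negative control rows, taken on the same array as the value, and lay between 7.62 and 8.24. ADAMTS9 passed in every BORA tumour and in EV replicates 2 to 4. ADAMTS17 passed in BORA replicate 2 and in EV replicates 2 and 3, and ADAM19 in BORA replicate 3 alone. The remaining 29 genes, 78.4% of the family, passed in no array, where the share over all 17709 clusters was 52.1%. A signal below this level does not show that a gene is silent. Against the 99th percentile (9.87 to 10.77), ADAM9 and ADAM10 alone passed in every array of either group.

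**Figure D1:**
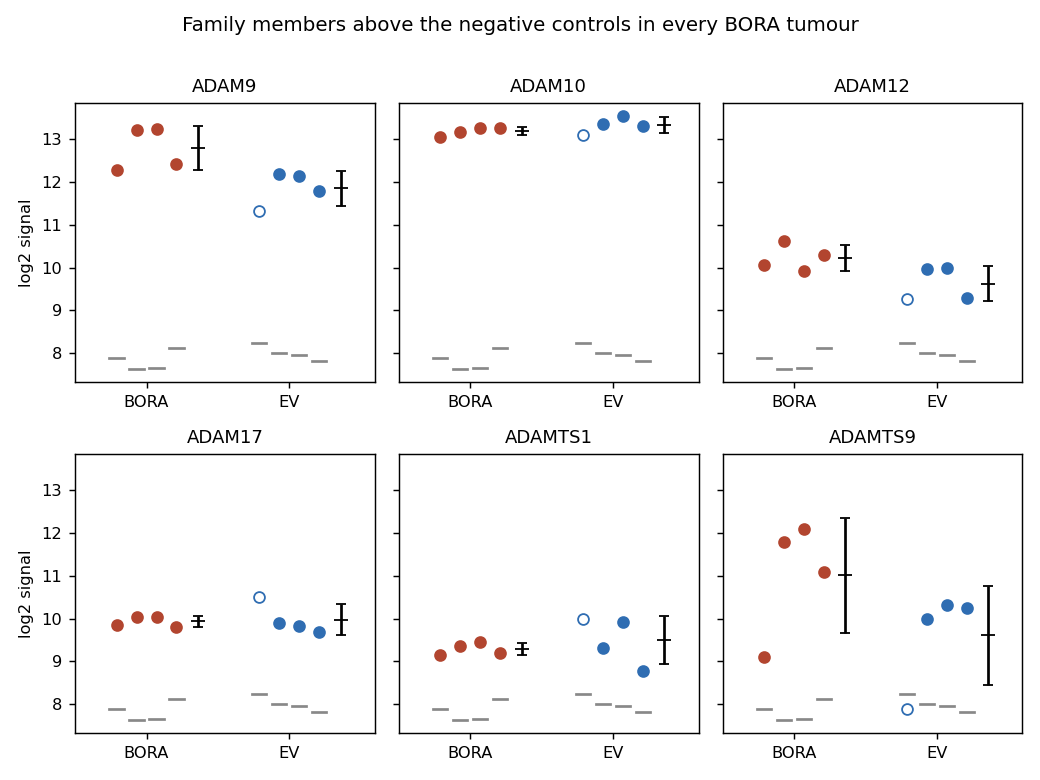
Log2 signal (y axis) of the 6 genes that exceeded the negative controls in every BORA tumour, by group (x axis). Points are single tumours in replicate order, the open circle is EV replicate 1, grey ticks are the 95th percentile of the negative controls of that array, and black bars are the group mean ± SD (n = 4); levels of different genes are not comparable. ADAM9 is the gene whose groups do not overlap, and ADAMTS9 has a BORA and an EV tumour far below the others.

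No ADAM or ADAMTS gene differed between BORA and EV tumours at a limma adjusted p under 0.05. The count was 0 of 37 over 8 arrays, where 0.102% of all clusters were called (all of them higher), and 0 of 37 over 7 arrays, where 0.514% were (0.435% higher and 0.0791% lower). With p under 0.05 before adjustment, 5 members were higher and 10 lower over 8 arrays, against 7.37% and 7.17% of all clusters (14.5% together). Over 7 arrays these counts were 3 and 6, against 7.7% and 7.62% (15.3% together). The groups did not overlap at 2 members that were higher and 5 that were lower in BORA tumours, against 4.45% and 4.91% of all clusters (9.36% together). Over 7 arrays these were 2 and 7 members, against 6.66% and 7.68% (14.3% together). The values that follow are therefore descriptions of genes that did not pass, and the intervals say how large a difference the arrays leave possible.

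ADAM10 and ADAM17 are the main sheddases of most cells: ADAM10 cuts Notch, N-cadherin and CD44, and ADAM17, first known as the TNF converting enzyme, releases TNF and several EGF receptor ligands. Both were above the controls in all 8 tumours, and their groups lay close together. ADAM10 was at 13.06, 13.17, 13.28 and 13.26 in BORA replicates 1 to 4 and at 13.09, 13.37, 13.55 and 13.32 in EV replicates 1 to 4. The BORA values lay within or just below the EV range, with a log2 difference of -0.14 (95% interval -0.47 to 0.19, limma adjusted p = 0.675). Without EV replicate 1 the groups no longer overlapped, and the difference was -0.22 (-0.56 to 0.12, limma adjusted p = 0.544). ADAM17 was at 9.85, 10.04, 10.04 and 9.79 in BORA tumours and at 10.51, 9.88, 9.83 and 9.68 in EV tumours. EV replicate 1 held the highest ADAM17 value of the 8 arrays, and the other 7 tumours lay within a narrow range. The log2 difference was -0.04 over 8 arrays (-0.48 to 0.39, limma adjusted p = 0.936) and 0.14 over 7 (-0.21 to 0.48, limma adjusted p = 0.729), so its sign turned with that array.

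The stretches before the start of these 2 genes are shown beside those of ADAM20 and ADAM29, which are known for expression in testis and exceeded the controls in no array, because the pairs differ in base composition as well as in signal. Each is the 250 bases before the RefSeq gene start on GRCh38.p14, 5′ to 3′ on the strand of the gene, with CG dinucleotides in capitals (CG reads the same on both strands): ADAM10 at chr15:58749708-58749957 on the minus strand, ADAM17 at chr2:9555831-9556080 on the minus strand, ADAM20 at chr14:70535005-70535254 on the minus strand and ADAM29 at chr4:174918108-174918357 on the plus strand.
ADAM10: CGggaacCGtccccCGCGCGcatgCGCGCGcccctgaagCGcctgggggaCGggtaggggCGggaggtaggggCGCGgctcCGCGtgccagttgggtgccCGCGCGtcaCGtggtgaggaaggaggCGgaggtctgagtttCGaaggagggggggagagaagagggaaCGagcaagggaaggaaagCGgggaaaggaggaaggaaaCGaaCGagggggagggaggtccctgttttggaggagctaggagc
ADAM17: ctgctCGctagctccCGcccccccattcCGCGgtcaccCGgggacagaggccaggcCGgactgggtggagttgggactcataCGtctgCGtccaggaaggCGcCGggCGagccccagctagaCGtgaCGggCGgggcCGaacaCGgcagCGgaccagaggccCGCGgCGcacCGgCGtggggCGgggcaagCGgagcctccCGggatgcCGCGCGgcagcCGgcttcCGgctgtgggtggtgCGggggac
ADAM20: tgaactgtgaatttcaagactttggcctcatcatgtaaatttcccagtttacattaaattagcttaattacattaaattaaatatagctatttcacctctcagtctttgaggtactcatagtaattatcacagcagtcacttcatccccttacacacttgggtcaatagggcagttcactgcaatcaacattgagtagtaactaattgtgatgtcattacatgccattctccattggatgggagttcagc
ADAM29: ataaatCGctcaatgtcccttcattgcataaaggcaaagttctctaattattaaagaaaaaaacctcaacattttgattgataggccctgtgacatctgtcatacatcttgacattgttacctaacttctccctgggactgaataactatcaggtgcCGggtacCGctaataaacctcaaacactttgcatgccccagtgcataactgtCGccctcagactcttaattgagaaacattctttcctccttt

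ADAM10 had 25 CG dinucleotides in this stretch and ADAM17 had 31, while ADAM20 had 0 and ADAM29 had 4. At least 1 CG stood in 93.9% of all 35116 stretches of this length in the table, and the median was 11. As many CGs as in ADAM10 or more stood in 21.6% of them, and as many as in ADAM17 or more in 10.85%. The table held 23 of the 37 genes. ADAM10, ADAM12 and ADAM17, the 3 above the controls in every array with an entry, had 25 to 31. The 18 with an entry that passed in no array had 0 to 40, with a median of 22.5, so a CG-rich start was also common among genes without measurable signal.

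ADAM9, a widely expressed sheddase that also binds integrins, had higher values in BORA tumours without overlap. It was at 12.28, 13.22, 13.25 and 12.42 in BORA replicates 1 to 4 and at 11.31, 12.20, 12.14 and 11.78 in EV replicates 1 to 4. The lowest BORA tumour lay just above the highest EV tumour, and EV replicate 1 was the lowest of all. The means were 12.79 ± 0.52 and 11.86 ± 0.41 (SD, n = 4 each), a log2 difference of 0.93 (SE 0.29, 95% interval 0.29 to 1.57) or 1.91-fold. The limma adjusted p was 0.225. Over 7 arrays the difference was 0.75 (SE 0.26, limma adjusted p = 0.215).

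ADAM12 and ADAM19, sheddases known from mesenchymal tissue, also had higher means in BORA tumours, with overlap. ADAM12 was at 10.06, 10.62, 9.91 and 10.29 in BORA tumours and at 9.26, 9.96, 9.99 and 9.29 in EV tumours. The highest EV values reached into the BORA range, and the log2 difference was 0.59 (95% interval 0.07 to 1.12, limma adjusted p = 0.304). Over 7 arrays it was 0.47 (limma adjusted p = 0.360). ADAM19 was at 7.55, 7.51, 7.88 and 7.54 in BORA tumours and at 6.18, 7.61, 6.81 and 7.27 in EV tumours. Its EV values were spread by more than its BORA values, EV replicate 1 being the lowest, and only BORA replicate 3 exceeded the controls. The log2 difference was 0.65 over 8 arrays (limma adjusted p = 0.335) and 0.39 over 7 (limma adjusted p = 0.411). ADAM15, an ADAM with an integrin-binding RGD motif, stayed below the controls in every tumour, at 7.78, 7.21, 7.62 and 7.21 in the BORA group and 6.99, 7.18, 7.58 and 7.10 in the EV group. Its difference of 0.24 was within the spread (limma adjusted p = 0.583; 0.17 and 0.737 over 7 arrays).

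Among ADAMTS genes, ADAMTS9 and ADAMTS1, which cleave the proteoglycans versican and aggrecan, were the ones well measured. ADAMTS9 was at 9.10, 11.78, 12.09 and 11.09 in BORA replicates 1 to 4 and at 7.88, 9.99, 10.31 and 10.26 in EV replicates 1 to 4. In BORA replicates 2 to 4 it exceeded every EV tumour, while BORA replicate 1 lay below EV replicates 2 to 4, and EV replicate 1 lay below its control percentile of 8.24. The log2 difference, 1.41 or 2.65-fold, was the largest of the family and had the largest SE (0.71, limma adjusted p = 0.400). Over 7 arrays it was 0.83 (-0.39 to 2.05, limma adjusted p = 0.516). Without both EV replicate 1 and BORA replicate 1 it was 1.47 and passed (limma adjusted p = 0.0463), the single call of a family member under any setting tried apart from the replicate block over 7 arrays, which drops the same tumour. Leaving out BORA replicate 1 alone gave 2.04 and did not pass.

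ADAMTS1 was at 9.14, 9.36, 9.45 and 9.19 in BORA tumours and at 9.99, 9.30, 9.91 and 8.78 in EV tumours. The BORA values lay inside the EV range. The log2 difference was -0.21 (95% interval -0.79 to 0.38, limma adjusted p = 0.733) over 8 arrays and -0.04 (-0.57 to 0.49, limma adjusted p = 0.951) over 7. ADAMTS5, an aggrecanase whose gene lies next to ADAMTS1 on chromosome 21, was below the controls in every tumour, at 5.92, 5.93, 5.38 and 4.88 in the BORA group and 6.80, 6.37, 6.83 and 5.89 in the EV group. EV replicate 4 reached into the BORA range. Its log2 difference of -0.95 (SE 0.29, limma adjusted p = 0.225) was the lowest of the family, and over 7 arrays it was -0.84 (limma adjusted p = 0.214). ADAMTS4, the other main aggrecanase, was at 5.47, 6.28, 5.46 and 5.14 in BORA tumours and at 5.24, 6.12, 6.20 and 5.25 in EV tumours, with overlapping groups and a difference of -0.11 (limma adjusted p = 0.884; -0.27 and 0.713 over 7 arrays).

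**Figure D2:**
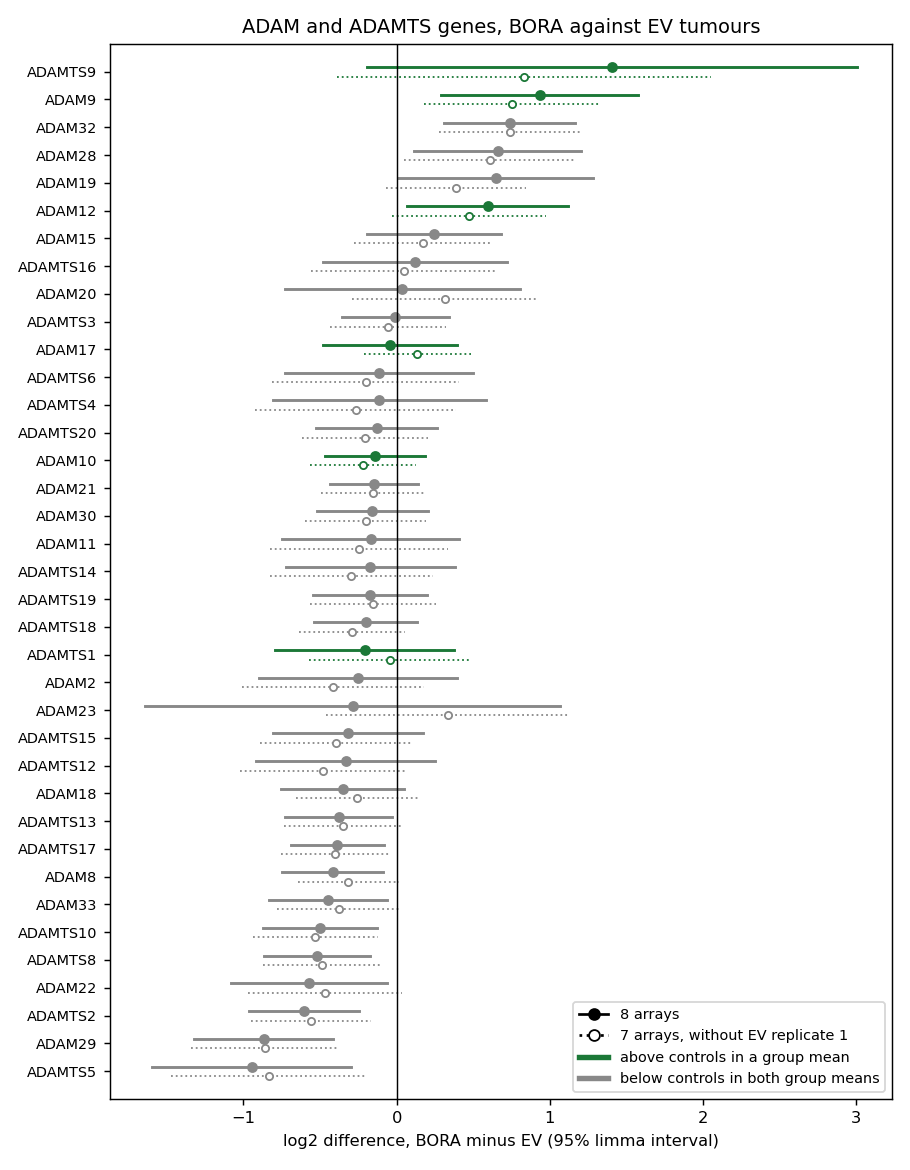
Log2 difference, BORA minus EV (x axis), of all 37 genes with the 95% interval from limma, ordered by the value over 8 arrays (filled circles, solid lines). Open circles and dotted lines are the 7 arrays without EV replicate 1, green marks genes above the negative controls in at least 1 group mean and grey those below in both; the values run from -0.95 (ADAMTS5) to 1.41 (ADAMTS9), and 28 of 37 lie below 0.

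The other ADAMTS genes at an unadjusted p under 0.05 all had lower values in BORA tumours, over 8 as over 7 arrays. ADAMTS2, which trims the amino end of fibrillar procollagens, was at 5.74, 5.72, 5.47 and 5.41 in the BORA group and 6.32, 6.36, 5.89 and 6.18 in the EV group. The groups did not overlap (log2 difference -0.60, SE 0.16, limma adjusted p = 0.186; -0.56 and 0.181 over 7 arrays). ADAMTS8 was at 4.68, 4.25, 4.57 and 4.62 against 5.14, 4.87, 4.97 and 5.21, again without overlap (-0.52, limma adjusted p = 0.217; -0.49 and 0.225 over 7 arrays). ADAMTS17 was at 7.56, 7.62, 7.47 and 7.66 against 7.93, 8.10, 8.05 and 7.78. Its groups were separate, close to the control percentile (-0.39, limma adjusted p = 0.268; -0.40 and 0.265 over 7 arrays). ADAMTS10, which binds fibrillin microfibrils, was at 4.31, 4.31, 4.38 and 4.66 against 4.82, 4.62, 5.17 and 5.06, with BORA replicate 4 above EV replicate 2 (-0.50, limma adjusted p = 0.249; -0.53 and 0.216 over 7 arrays). ADAMTS13, the von Willebrand factor protease made in liver, was at 3.83, 3.59, 4.08 and 3.78 against 4.28, 4.15, 4.01 and 4.35, with overlap (-0.38, limma adjusted p = 0.318; -0.35 and 0.375 over 7 arrays).

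ADAM29, an ADAM of testis without the active site, had the lowest adjusted p of the family. It was at 5.74, 5.41, 4.95 and 5.72 in BORA tumours and at 6.34, 6.21, 6.15 and 6.58 in EV tumours. The groups did not overlap, all 8 values lay below the controls, and the log2 difference was -0.87 (SE 0.20, limma adjusted p = 0.153; -0.86 and 0.112 over 7 arrays). ADAM32, another testis ADAM without the site, was at 5.75, 5.95, 5.25 and 5.44 against 4.86, 4.63, 4.82 and 5.12. Every BORA tumour was above every EV tumour, at levels below the controls (log2 difference 0.74, SE 0.19, limma adjusted p = 0.180; 0.74 and 0.136 over 7 arrays). ADAM22, a catalytically inactive receptor of the nervous system, was at 7.16, 7.31, 6.56 and 7.13 against 7.91, 7.93, 7.27 and 7.33, BORA replicate 2 lying above EV replicate 3 (-0.57, limma adjusted p = 0.307; -0.47 and 0.361 over 7 arrays).

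The last 3 ADAMs of this kind carry the active site. ADAM8, known from leukocytes, was at 5.36, 5.50, 5.44 and 5.35 in BORA tumours and at 6.14, 5.74, 5.66 and 5.78 in EV tumours, without overlap (log2 difference -0.42, limma adjusted p = 0.273; -0.31 and 0.349 over 7 arrays). ADAM33, linked to asthma, was at 5.40, 5.65, 5.43 and 5.22 against 6.09, 6.11, 5.60 and 5.69, with BORA replicate 2 above EV replicate 3 (-0.45, limma adjusted p = 0.296; -0.37 and 0.363 over 7 arrays). ADAM28, known from lymphocytes, was at 4.56, 5.45, 4.37 and 5.03 against 4.04, 4.53, 4.15 and 4.05, with EV replicate 2 inside the BORA range (0.66, limma adjusted p = 0.282; 0.61 and 0.291 over 7 arrays). All values of these genes were below the controls.

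**Figure D3:**
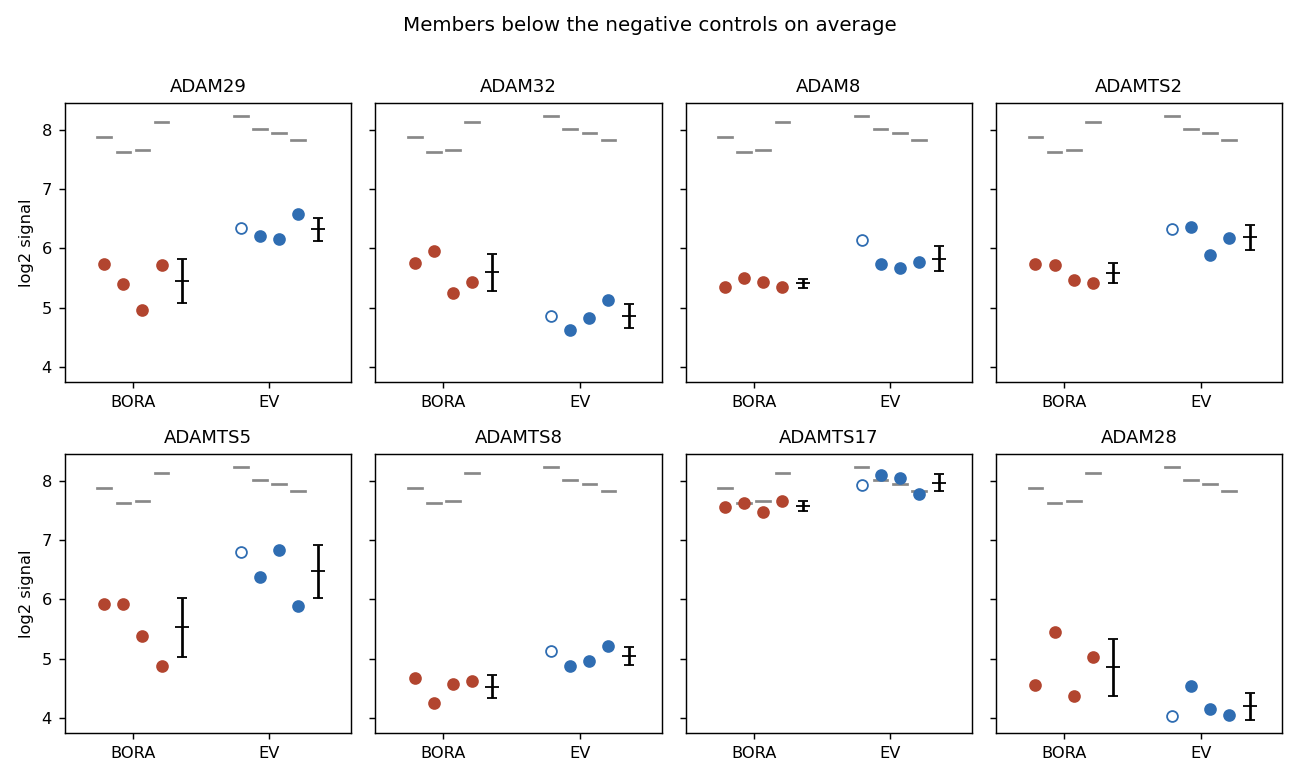
Log2 signal (y axis) by group (x axis) of 8 of the genes at an unadjusted p under 0.05 whose group means lay below the negative controls. The others of this kind, ADAM19, ADAM22, ADAM33, ADAMTS10 and ADAMTS13, overlap between the groups and are not shown. Points are single tumours in replicate order, the open circle is EV replicate 1, grey ticks are the 95th percentile of the negative controls of the array, and black bars are the group mean ± SD (n = 4). ADAM29, ADAM8, ADAMTS2, ADAMTS8 and ADAMTS17 are lower and ADAM32 is higher in BORA tumours without overlap, while ADAMTS5 and ADAM28 overlap.

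Most of the lower values belonged to genes below the controls, and that was also true of the arrays as a whole. Of the 31 members below the controls in both group means, 25 had a log2 difference below 0 (80.6%, median -0.20), while 67.4% of all 10115 such clusters did (median -0.11). Over 7 arrays 24 of the 31 were below 0 (77.4%, median -0.27), against 66.4% of all such clusters (median -0.11). After quantile normalization of the 8 arrays 24 of these 31 were below 0 (median -0.10), against 54.4% of all such clusters (median -0.026). The BORA tumours lay below the EV tumours without overlap at 5 of the 31 and above them at 1, where 7.3% and 2.14% of such clusters did. Over 7 arrays these were 6 and 1, against 10.9% and 3.59%. Of the 6 members above the controls in a group mean, 3 were higher and 3 lower, with a median of 0.28, against 0.12 over all such clusters. Over 7 arrays 4 were higher and 2 lower (median 0.30, against 0.095), ADAM17 having turned. The part that this opposite shift of dim and bright clusters had in the members' values was not tested.

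By role, no group of the family held a called gene in either fit. The 12 ADAMs with the active site had 6 values above and 6 below 0 over 8 arrays, with a median of -0.0021, and 7 above and 5 below over 7, with a median of 0.15. Their median thus turned its sign with EV replicate 1. The 7 ADAMs without it had 1 above and 6 below (median -0.29) over 8 arrays and 2 above and 5 below (median -0.26) over 7. The 7 proteoglycan-cleaving ADAMTS genes had 1 above, ADAMTS9, and 6 below over 8 and over 7 arrays (median -0.21 and -0.27). The 3 procollagen N-propeptidases, ADAMTS2, ADAMTS3 and ADAMTS14, were all below 0 over 8 and over 7 arrays (median -0.17 and -0.30), though ADAMTS3 turned to 0.083 after quantile normalization. The 8 other ADAMTS genes had 1 above, ADAMTS16, and 7 below (median -0.27 and -0.32). The median over all clusters was -0.026 over 8 and -0.029 over 7 arrays. The ADAMs without the site, the N-propeptidases and the other ADAMTS genes all lay below the controls in both group means. Among all such clusters the median was -0.11 in either fit, with 67.4% of values below 0 over 8 arrays and 66.4% over 7.

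The 16 members not described singly had log2 differences from -0.35 (ADAM18) to 0.12 (ADAMTS16) over 8 arrays and from -0.48 (ADAMTS12) to 0.33 (ADAM23) over 7, and all of them lay below the controls in all 8 tumours. ADAM23, a receptor of LGI proteins without the active site, was the most uneven of them. It was at 5.51, 5.69, 5.92 and 6.16 in BORA tumours and at 7.97, 6.57, 4.76 and 5.13 in EV tumours. Its difference went from -0.29 over 8 arrays to 0.33 over 7, as EV replicate 1 was the highest. ADAM23 was singled out after its values were seen.

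EV replicate 1 was above the other 7 arrays at 6 members, ADAM8, ADAM17, ADAM18, ADAM20, ADAM23 and ADAMTS1, and below them at 6 others, ADAM9, ADAM12, ADAM15, ADAM19, ADAM28 and ADAMTS9. That is 16.2% of the family each way, where it was above at 20.6% and below at 22.2% of all clusters. Of the genes above the controls it therefore held the least ADAM9, ADAM12 and ADAMTS9 and the most ADAM17 and ADAMTS1.

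Markers of other cell types were set beside the family. Host cells in these xenografts are of mouse, while the array is of a human design. How far its probes read mouse transcripts was not tested, so these values do not give the content of host cells. Of 5 leukocyte markers PTPRC (CD45) alone exceeded the controls in any tumour. It was at 9.68 to 10.96 in BORA tumours, 6.91 in EV replicate 1 and 12.19 to 12.94 in EV replicates 2 to 4, and it fell over 7 arrays (log2 difference -2.07, limma adjusted p = 0.0194) without passing over 8 (-0.68, 0.803). The mean of the 5 was 7.07 to 7.34 in BORA tumours, 6.76 in EV replicate 1 and 7.73 to 8.02 in the other EV tumours. Of 5 endothelial markers none was called in either fit. PECAM1 exceeded the controls in 3 BORA arrays and CDH5 in 2, and neither did so in any EV array. Both were higher in BORA tumours without overlap over 8 and over 7 arrays. PECAM1 was at 7.78 to 8.55 in BORA and 5.90 to 7.54 in EV tumours (1.56, limma adjusted p = 0.137; 1.34 and 0.0830 over 7 arrays). CDH5, below the controls in both group means, was at 7.03 to 8.30 and 4.48 to 6.56 (2.28, limma adjusted p = 0.129; 2.09 and 0.0731 over 7 arrays). VWF, KDR and TEK were below the controls in every array, with differences of -0.33, -0.062 and -0.49. The mean of the 5 was 5.67 to 6.10 in BORA tumours, 5.07 in EV replicate 1 and 5.05 to 5.74 in the other EV tumours. The mean of 5 fibroblast markers was 9.20 to 9.74 in BORA tumours, 9.56 in EV replicate 1 and 8.43 to 9.55 in the other EV tumours. LUM among them was at 9.26 to 10.94, 11.83 and 6.70 to 9.25. Its difference was 1.14 over 8 arrays (limma adjusted p = 0.576) and, barely without overlap, 2.07 over 7 (limma adjusted p = 0.112). COL1A1, COL1A2, PDGFRB and DCN overlapped over 7 arrays, with differences of 0.19, -0.17, -0.40 and -0.14. Groups also did not overlap over 8 arrays at the ovarian marker PAX8 (1.10, limma adjusted p = 0.199; 0.79 and 0.121 over 7 arrays) and at the squamous marker S100A8 (-3.85, 0.434; -1.22 and 0.224 over 7 arrays). S100A8 exceeded the controls in EV replicate 1 alone. The squamous marker KRT14 was higher over 7 arrays without overlap (1.35, limma adjusted p = 0.0915) and overlapped over 8 (-0.57, limma adjusted p = 0.884). KRT1, KRT5, DSG3, SPRR1A and IVL overlapped over 7 arrays, with differences of 0.22, 0.43, -1.14, -0.066 and -0.31. The part of cell makeup in the values of the family was not tested.

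The tissue inhibitors of metalloproteases bind the active site of these enzymes. TIMP3, held in the matrix, inhibits ADAM17 and the aggrecanases, and TIMP1 inhibits ADAM10 and many matrix metalloproteases. Of 5 inhibitor genes measured, none passed over 8 or 7 arrays, with medians of -0.15 and 0.062. TIMP1 was at 14.86, 14.68, 15.33 and 14.67 in BORA tumours and at 12.81, 14.53, 13.87 and 13.83 in EV tumours, all above the controls. Its groups did not overlap, and the log2 difference was 1.12 (SE 0.33, 95% interval 0.39 to 1.86, limma adjusted p = 0.212). Over 7 arrays it was 0.81 (limma adjusted p = 0.138). TIMP3 was at 8.86, 8.62, 8.80 and 8.16 in BORA tumours and at 13.37, 7.90, 6.99 and 6.79 in EV tumours. EV replicate 1 was far above the other 7 arrays, and the other EV tumours were below every BORA tumour and below the controls. The difference was -0.15 over 8 arrays (SE 1.24, limma adjusted p = 0.965) and 1.38 over 7 (SE 0.27, 95% interval 0.79 to 1.98, limma adjusted p = 0.0572). RECK, a membrane-anchored inhibitor of ADAM10, was at 8.25 to 8.62 in BORA tumours and 7.76 to 8.78 in EV tumours (0.20, limma adjusted p = 0.687; 0.062 and 0.912 over 7 arrays). TIMP4 and A2M were below the controls in every tumour, with differences of -0.16 and -0.22 over 8 arrays and of -0.16 and -0.30 over 7.

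**Figure D4:**
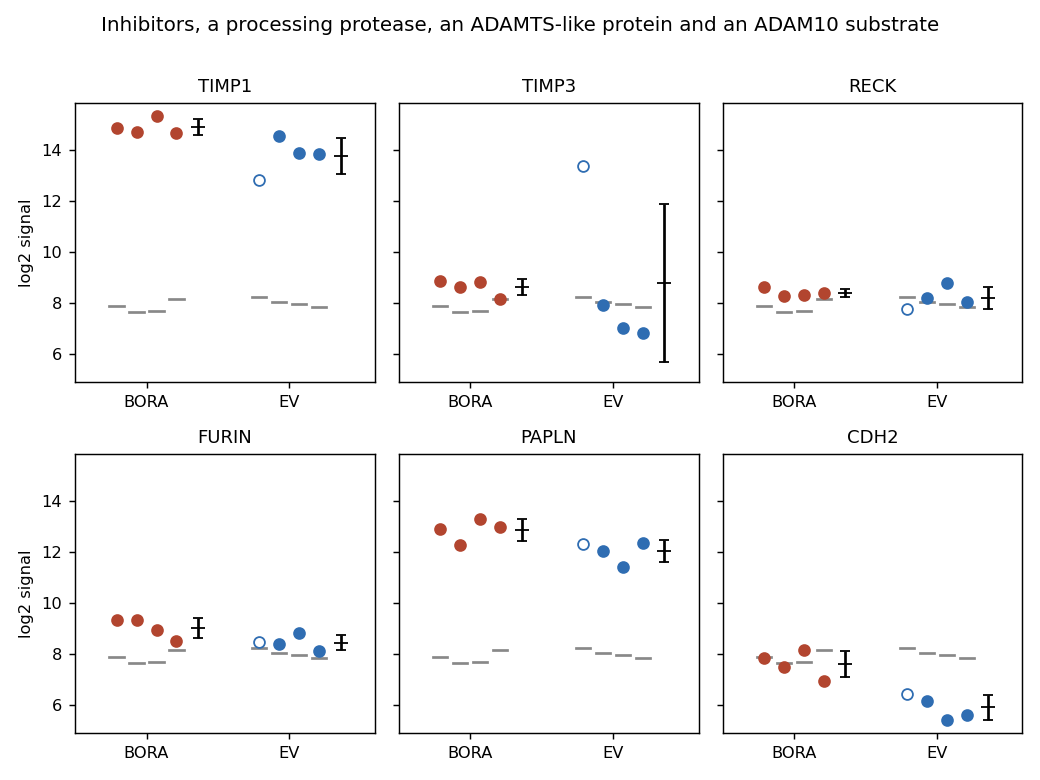
Log2 signal (y axis) by group (x axis) of TIMP1, TIMP3, RECK, FURIN, PAPLN and CDH2. Points are single tumours in replicate order, the open circle is EV replicate 1, grey ticks are the 95th percentile of the negative controls of the array, and black bars are the group mean ± SD (n = 4). The TIMP3 value of 13.37 in EV replicate 1 lies far above the other 7 tumours, and the groups of TIMP1 and CDH2 do not overlap.

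ADAMs mature when a proprotein convertase such as furin removes the prodomain, and reach the surface with the help of iRhoms (ADAM17) or of certain tetraspanins (ADAM10). Of 12 such genes 0 passed in either fit, with 5 values above and 7 below 0 and a median of -0.045 over 8 arrays, and 3 above, 9 below and a median of -0.059 over 7. FURIN was at 9.33, 9.32, 8.91 and 8.49 in BORA tumours and at 8.45, 8.36, 8.80 and 8.10 in EV tumours. EV replicate 3 reached into the BORA range (log2 difference 0.59, SE 0.23, limma adjusted p = 0.299; 0.59 and 0.282 over 7 arrays). TSPAN17, a partner of ADAM10, had a difference of 0.49 (limma adjusted p = 0.310; 0.37 and 0.398 over 7 arrays). PCSK5, another convertase, had one of -0.68 (limma adjusted p = 0.335; -0.46 and 0.420 over 7 arrays). TSPAN15, the partner under which ADAM10 cuts N-cadherin, had one of -0.38 over 8 arrays and -0.90 over 7 (limma adjusted p = 0.775 and 0.301), with EV values from 7.14 to 10.29.

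The ADAMTS-like proteins have the matrix-binding part of ADAMTS enzymes without the protease. Of 7 measured 0 passed over 8 or 7 arrays, with medians of -0.22 and -0.26. PAPLN, which encodes papilin, was at 12.89, 12.24, 13.27 and 12.96 in BORA tumours and at 12.30, 12.03, 11.40 and 12.34 in EV tumours. Only BORA replicate 2 lay within the EV range (log2 difference 0.82, SE 0.27, limma adjusted p = 0.244; 0.92 and 0.158 over 7 arrays). ADAMTSL5 and ADAMTSL1 were lower in BORA tumours without overlap in either fit. ADAMTSL5 had differences of -0.56 over 8 and -0.52 over 7 arrays (limma adjusted p = 0.224 and 0.234). Those of ADAMTSL1 were -0.26 and -0.26 (limma adjusted p = 0.373 and 0.441). ADAMTSL4 overlapped, EV replicate 1 being the highest, with differences of -0.66 and -0.39 (limma adjusted p = 0.380 and 0.502). All BORA values of ADAMTSL5, ADAMTSL1 and ADAMTSL4 were below the controls.

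Targets of the sheddases were read as transcripts only, which says nothing of shedding itself. Of 7 EGF receptor ligands 0 passed in either fit. Over 8 arrays 6 had values below 0 (median -0.45), and without EV replicate 1 5 did (median -0.17). EREG, epiregulin, had all 4 BORA values inside an EV range of 4.67 to 7.33, below the controls (-1.19, limma adjusted p = 0.309; -0.99 and 0.332 over 7 arrays). TGFA, above the controls in every tumour, had a difference of -0.45 (limma adjusted p = 0.406; -0.40 and 0.470 over 7 arrays). BTC and EGF, both below them, had differences of -0.28 and -0.25 over 8 arrays and of -0.40 and -0.17 over 7. Of 14 other shed membrane proteins, CDH2 (N-cadherin) rose over 7 arrays, and 0 passed over 8 (medians 0.076 and -0.056). It was at 7.84, 7.46, 8.13 and 6.93 in BORA tumours and at 6.41, 6.15, 5.38 and 5.59 in EV tumours. The groups did not overlap, and BORA replicate 3 alone exceeded the controls. The log2 difference was 1.88 over 7 arrays (SE 0.28, limma adjusted p = 0.0194) and 1.71 over 8 (SE 0.30, limma adjusted p = 0.0994), and over 7 arrays the call ended without BORA replicate 2 or 3 or EV replicate 3 (limma adjusted p = 0.0617, 0.0583 and 0.0528).

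CD44, the hyaluronan receptor cut by ADAM10, was at 13.49 to 13.93 in BORA tumours and 13.93 to 15.11 in EV tumours. Its groups touched without overlap, the highest value being that of EV replicate 1 (-0.58, limma adjusted p = 0.340; -0.31 and 0.407 over 7 arrays). PTPRF and APP, other sheddase targets above the controls in every tumour, had differences of -0.67 and -0.46 (limma adjusted p = 0.334 and 0.349) over 8 arrays and of -0.42 and -0.30 (0.413 and 0.477) over 7. Of 13 matrix targets of ADAMTS enzymes 0 passed over 8 or 7 arrays, with medians of -0.047 and -0.17. VCAN, which encodes versican, was at 11.60, 11.53, 11.22 and 10.37 in BORA tumours and at 7.73, 10.95, 10.35 and 11.08 in EV tumours. EV replicate 1 was the lowest, as it was for ADAMTS9, and the difference went from 1.15 (limma adjusted p = 0.457) to 0.38 (0.578) without it. CCBE1, which works with ADAMTS3 to activate VEGF-C, had differences of -0.48 and -0.94 over 8 and 7 arrays (limma adjusted p = 0.680 and 0.250), FBN1 of -0.048 and -0.41, and BCAN of -0.24 and -0.25.

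Family members that neighbour each other in the genome were set side by side, with the gene order of GRCh38.p14. ADAM9, ADAM32, ADAM18 and ADAM2 follow each other on chromosome 8, with log2 differences of 0.93, 0.74, -0.35 and -0.25 over 8 arrays and 0.75, 0.74, -0.26 and -0.41 over 7. Of the 10 nearest measured genes outside the family, 5 on each side of this run, 8 had values above 0 (median 0.49, range -0.36 to 0.99). Over 7 arrays 7 of the 10 were above 0 (median 0.32), and PLEKHA2 among them passed (0.97, limma adjusted p = 0.0496). For the other 33 members the same median lay between -0.24 and 0.16 over 8 arrays. Over 7 arrays it lay between -0.31 (ADAM11) and 0.12 (ADAMTS8 and ADAMTS15). Of all clusters, 53.4% had values below 0 over 8 arrays and 53.9% over 7. ADAM9, ADAM32, ADAM18 and ADAM2 all share these neighbours, so the run is 1 case, and ADAM18 and ADAM2 in it had values below 0. The run was singled out after its values were seen. ADAMTS8 and ADAMTS15, neighbours on chromosome 11, had differences of -0.52 and -0.32, and ADAM20 and ADAM21, neighbours on chromosome 14, 0.038 and -0.15, all over 8 arrays. Over 7 arrays the 4 values were -0.49, -0.40, 0.32 and -0.16.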

How the data were processed

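The deposited table holds 1 value per row and array for 8 tumours, 4 BORA and 4 EV, grouped by the sample labels. The submitters' processing notes name Affymetrix Expression Console, with which the authors made the deposited values, read here as log2 signals. No label states the log base, so this reading rests on the range of the values, and folds hold only under it. For background correction, summary, normalization and build the entry is: not given in the sources used here. Of 24351 rows, 17709 carry 1 gene symbol in the supplied platform annotation. Rows with no symbol or with several were set aside before the main fits, and those with several were not counted. All 17709 clusters matched a GRCh38.p14 gene table, used for names and gene order. Row identifiers and annotation belong to a different Affymetrix human design from the one in the series description (Human Gene 1.0 ST), which was not resolved. The number of arrays limits the precision.

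All 17709 clusters were fitted with limma 3.58.1 in R 4.3.3 (lmFit, eBayes, no covariates, no filter), BORA minus EV, with Benjamini-Hochberg adjustment over all of them and a threshold of 0.05, over 8 arrays and over the 7 without EV replicate 1. The steps were tested on simulated data. Members at an unadjusted p under 0.05 in either fit, those above the negative controls in every array of a group, and 8 well-known members were named, with up to 4 genes of smallest p in each of 6 pathway lists and TIMP3. The members and lists were chosen with earlier results of these data known. TIMP2, PCSK6, AREG, TNF, TNFRSF1B and COL3A1 of the lists were not found among the rows with 1 symbol and were not analysed here. ADAMTSL6 is another name of THSD4. Promoter sequences come from RefSeq on GRCh38.p14. The labels name no scan date or slide. BORA and EV tumours share replicate numbers, but same-numbered arrays did not deviate together (r = -0.11, 0.039, 0.071 and -0.019 over all clusters), so the numbers were not taken as pairs. The alternatives listed in the closing section were run on each result.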

Additional observations from a re-analysis of the deposited data

Results flagged for a closer look

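In 6 of the 90 groups of 4 tumours looked at (45 named genes in 2 groups), 1 tumour lay far from the other 3, where chance gives about 1 in 20. EV replicate 1 was such a tumour for ADAMTS9 (7.88, the others at 9.99 to 10.31), TIMP3 (13.37, the others at 6.79 to 7.90) and FBN1 (6.01, the others at 7.34 to 7.59). EV replicate 2 was low for TGFA (9.14, the others at 9.97 to 10.12). BORA replicate 1 was low for APP (14.76, the others at 15.16 to 15.17), and BORA replicate 3 was high for ADAM19 (7.88, the others at 7.51 to 7.55).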

How the results depend on the processing

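Over 8 arrays 0 family members were called under every alternative run: the replicate block, quantile normalization, centring on the median, array weights, robust fitting with an intensity trend, both filters on dim clusters, all rows, the ordinary test, thresholds of 0.1 and 0.01, the mean of clusters, and leaving out each array (0 to 0). Over 7 arrays 1 member, ADAMTS9, was called with the replicate block, which there drops BORA replicate 1 as its partner is left out, and leaving out arrays gave 0 to 1. Pathway genes called over 8 arrays went from 0 to 1 with array weights and at a threshold of 0.1, and to 0 to 1 leaving out arrays. Over 7 arrays they went from 1 to 0 with the replicate block, clusters above the median, the ordinary test or a threshold of 0.01, to 2 with the trend or a threshold of 0.1, and to 0 to 2 leaving out arrays. Of all clusters over 8 arrays, 18 were called, 1 with the replicate block, the ordinary test or a threshold of 0.01, 9 above the median, 48 with array weights, 49 at 0.1, and 1 to 91 leaving out arrays. Over 7 arrays 91 were called, 39 with all rows, 0 in the ordinary test, 277 at 0.1, 11 at 0.01, and 25 to 152 leaving out arrays. Above the negative controls were 6 members in BORA and 5 in EV tumours, 2 and 2 at the 99th percentile and 8 in EV tumours at the 90th.

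The full set of alternatives was run for the genes described singly by the naming rule, and among these signs turned for, over 8 arrays, ADAM17 with array weights (0.056) and leaving out arrays (-0.14 to 0.14), TIMP3 with array weights (0.70) and leaving out arrays (-0.81 to 1.38), ADAMTS4 (-0.35 to 0.054), FBN1 (-0.41 to 0.11) and TSPAN15 (-0.90 to 0.15) leaving out arrays, and over 7 arrays ADAMTS1 with the replicate block (0.0043) and leaving out arrays (-0.32 to 0.25). For all 37 members and 58 pathway genes the signs over 8 arrays were also set against 7 arrays, where 2 members (ADAM17 and ADAM23) and 10 pathway genes turned, JAG1 (-0.26 to 0.54), CDH1 (-0.90 to 0.037) and EPGN (-0.46 to 0.25) among them. Against quantile normalization 1 member (ADAMTS3) and 5 pathway genes turned. TIMP3 over 7 arrays passed with the trend (limma adjusted p = 0.0410), among clusters above the controls (0.0471) and without EV replicate 2 (1.72, 0.0186), and CCBE1 without EV replicate 4 (-1.43, 0.0439). The causes were not tested. The arrays limit what could be seen: 29 members gave no signal above the negative controls.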
